A study of Homo sapiens with 2 samples.

Results

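The miR-15, miR-16 and miR-103 superfamily was followed in small RNA libraries of MDA-MB-231-IV2-1 cells with and without LOC550643 knockdown. The miRNAs were taken by name: every row for miR-15a, miR-15b, miR-16, miR-195, miR-424, miR-497, miR-503, miR-103a, miR-103b or miR-107, from either arm of the hairpin. The rule found 12 of the 425 mature miRNAs listed in the 2 libraries, and all 12 were listed in both. MDA-MB-231-IV2-1 is a highly metastatic subline of MDA-MB-231, a human triple-negative breast cancer cell line, and was isolated by passage through mice. The cell line field of the labels names the parental line, the titles the IV2 subline. Control cells received a scrambled siRNA (N.C) and knockdown cells received a pool of siRNAs against LOC550643 (siLOC550643 pool). RNA was taken from both after 48 h. The paper describes LOC550643 as a long non-coding RNA from the X chromosome. Each condition is a single library of 1 cell line, so differences have no replicate check and no p-value is given. Values are RPM, the reads of a miRNA scaled to a fixed total of miRNA reads, as deposited. Intervals are 95% exact binomial intervals of the reads behind each value and cover counting error only.

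The libraries differed in depth. One read was worth 5.29 RPM in control cells and 2.03 RPM after knockdown, from which their miRNA reads come to about 189034 and 491541. Of 6 epithelial marker miRNAs, 4 (miR-200a-3p, miR-141-3p, miR-429 and miR-205-5p) were listed in neither library and the set summed to 10.6 and 8.14 RPM. All 6 markers of mesenchymal or basal breast lines were listed in both, with sums of 189570 and 134682 RPM. Of 7 blood cell markers 1 was listed, at 74.1 and 89.5 RPM. LOC550643 itself is not a miRNA, so its knockdown could not be checked in these values. The paper measured it by real-time PCR and reports a reduction in this subline after transfection with the pooled siRNAs.

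The superfamily is built on a shared start of the mature strand. A miRNA finds its target mRNAs mainly through the seed, bases 2 to 8 from the 5′ end, so strands with the same seed can act on overlapping sets of mRNAs. The miR-15 and miR-16 strands are known as brakes on the cell cycle and on survival, with the cyclins D1 and E1 and BCL2 among their targets, and the DLEU2 locus that holds miR-15a and miR-16-1 is often deleted in chronic lymphocytic leukaemia. miR-424 and miR-503 act on several of the same cell cycle genes. miR-103a and miR-107 lie in introns of pantothenate kinase genes and are known to target DICER1, which encodes the enzyme that cuts miRNA hairpins.

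The seeds set the miRNAs into 3 groups and a remainder of 3p strands. The mature sequences below, from RefSeq (GRCh38.p14), carry their seeds in capitals, and they are shown because the values are compared by seed and by arm.
miR-15a-5p: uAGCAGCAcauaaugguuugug
miR-15b-5p: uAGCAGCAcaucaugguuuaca
miR-16-5p: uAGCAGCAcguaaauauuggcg
miR-424-5p: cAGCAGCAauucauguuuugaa
miR-503-5p: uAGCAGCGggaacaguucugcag
miR-103a-3p: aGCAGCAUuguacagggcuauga
miR-107: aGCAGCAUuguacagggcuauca
miR-16-1-3p: cCAGUAUUaacugugcugcuga
miR-16-2-3p: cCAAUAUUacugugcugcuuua
miR-424-3p: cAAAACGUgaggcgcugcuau

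The first 4 share the seed AGCAGCA, and miR-503-5p differs from them in the last base of the seed (AGCAGCG). miR-103a-3p and miR-107 carry GCAGCAU, which starts with GCAGCA, the end of the first seed moved by 1 base. No other listed miRNA with a RefSeq sequence had any of these 3 seeds. miR-103a-3p and miR-107 differ at 1 of 23 bases, G22C, counted from the 5′ end of miR-103a-3p. miR-15a-5p and miR-15b-5p differ at 4 of 22. The 2 remaining listed strands, miR-15b-3p (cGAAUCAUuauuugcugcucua) and miR-195-3p (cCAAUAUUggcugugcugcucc), had at most 3 reads in either library. miR-195-3p has the same first 8 bases as miR-16-2-3p.

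The hairpins lie in 7 places. MIR15A (chr13:50049119-50049201, minus strand) and MIR16-1 (chr13:50048973-50049061) are 57 bases apart within DLEU2. MIR15B (chr3:160404588-160404685, plus strand) and MIR16-2 (chr3:160404745-160404825) are 59 bases apart in an intron of SMC4, a condensin subunit gene. MIR424 (chrX:134546614-134546711, minus strand) and MIR503 (chrX:134546328-134546398) are 215 bases apart at the long non-coding gene MIR503HG. MIR195 and MIR497 sit together in MIR497HG on chromosome 17. MIR103A1, MIR103A2 and MIR107 lie in introns of PANK3, PANK2 and PANK1, on chromosomes 5, 20 and 10. Both MIR16-1 and MIR16-2 give the same miR-16-5p, whose reads cannot be divided between them, while their 3p strands differ in sequence.

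As a whole, the superfamily took a smaller share of the miRNA reads after knockdown. It held 3645 RPM in control cells (689 reads, interval 3378 to 3927 RPM) and 2461 RPM after knockdown (1210 reads, 2325 to 2604 RPM), or 0.364% and 0.246% of all miRNA reads. The intervals did not overlap, and the log2 ratio of knockdown over control was -0.57 (interval -0.70 to -0.43). Log2 ratios are on the log2(RPM + 1) scale after the libraries were set to the same total, which understates the change of low miRNAs, and their intervals come from the reads. The lower sum was that of 1 miRNA. Without miR-103a-3p the remaining 11 held 813 RPM in control cells and 863 RPM after knockdown, a log2 ratio of 0.087 (-0.19 to 0.36). Whether this sum differed depends on the scaling: with the median of ratios, which raises all log2 ratios by 0.20 before the pseudocount, it was 0.29 and its interval (0.012 to 0.56) lay above 0. Within the sum some strands were lower and others higher.

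**Figure D1:**
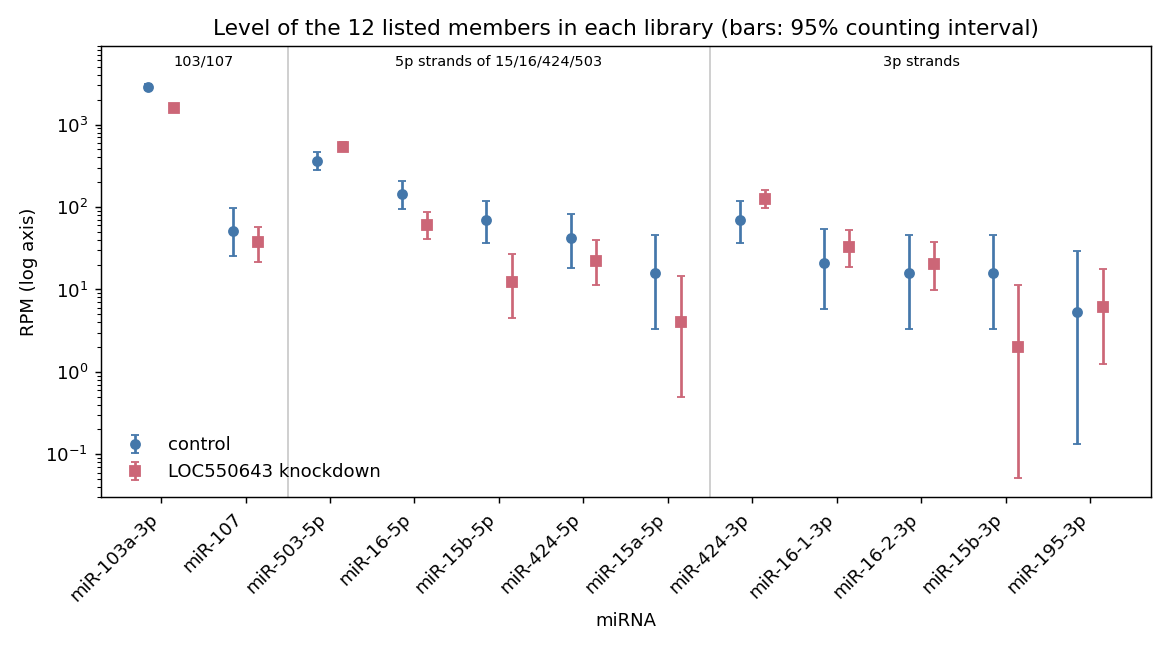
RPM (log axis) of the 12 listed miRNAs in control cells (circles) and the LOC550643 knockdown library (squares), with 95% counting intervals as bars. miR-103a-3p is the highest in both (2832 and 1598 RPM), the 5p strands of miR-15a, miR-15b, miR-16 and miR-424 are lower after knockdown, and miR-503-5p and miR-424-3p are higher.

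miR-103a-3p was the most abundant member, 24th of all miRNAs in control cells and 36th after knockdown. It was at 2832 RPM in control cells (interval 2596 to 3080 RPM) and 1598 RPM after knockdown (1489 to 1715 RPM). The knockdown value was 0.565 times the control value, a log2 ratio of -0.82 (-0.98 to -0.66). Its near twin miR-107 was far lower, at 51.1 RPM in control cells and 37.3 RPM after knockdown, with intervals that overlapped and a log2 ratio of -0.45 (-1.72 to 0.75). The ratio of miR-103a-3p to miR-107 reads was 53.5 in control cells and 43.7 after knockdown, and the log2 interval of that change, -1.58 to 0.91, holds 0.

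The values of this pair carry a trace of how reads were assigned. In reads, miR-103a-3p amounted to 535.351 in control cells and miR-107 to 9.667, neither a whole number, but they add up to 545.018. In the knockdown library 785.673 and 18.332 reads add up to 804.006. Each sum lies within 0.05 of a whole number. The other 10 members came out at whole reads in both libraries, within 0.1 of a read. The pair is also given as a sum, 2883 RPM in control cells and 1635 RPM after knockdown (log2 ratio -0.82, interval -0.98 to -0.66), as the division of reads between strands that differ by 1 base is uncertain. miR-103b, which comes from the strand opposite miR-103a, was listed in neither library, and neither were miR-103a-1-5p and miR-103a-2-5p.

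All 4 listed strands with the seed AGCAGCA had the lower value after knockdown. miR-16-5p, usually regarded as the main product of the family, was at 143 RPM in control cells (27 reads, 94.1 to 208 RPM) and 61.0 RPM after knockdown (30 reads, 41.2 to 87.1 RPM). Its intervals did not overlap, and its log2 ratio was -1.21 (-2.03 to -0.42). miR-15b-5p showed the largest difference among the members with more than 3 reads in both libraries. It was at 68.8 RPM in control cells (13 reads) and 12.2 RPM after knockdown (6 reads), a log2 ratio of -2.40 (-4.18 to -0.998). miR-424-5p was at 42.3 RPM (8 reads) and 22.4 RPM (11 reads), a log2 ratio of -0.89 whose interval, -2.37 to 0.60, holds 0. miR-15a-5p had 3 reads in control cells and 2 after knockdown, and no ratio is given for it. Summed, the 4 strands had 51 reads in control cells and 49 after knockdown, although the latter was sequenced more deeply. This is 270 RPM against 99.7 RPM, a log2 ratio of -1.43 (-2.03 to -0.84).

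miR-503-5p, which differs from these strands by the last base of its seed, had the opposite sign. It was at 365 RPM in control cells (69 reads, 284 to 462 RPM) and 539 RPM after knockdown (265 reads, 476 to 608 RPM), a log2 ratio of 0.56 (0.18 to 0.97). Its rank among all miRNAs was 75 in control cells and 63 after knockdown, whereas miR-16-5p ranked 109 and 136. Because both sets of strands were counted in the same libraries, their ratio does not depend on how the libraries are scaled. There were 1.35 miR-503-5p reads for each AGCAGCA read in control cells and 5.41 after knockdown, a log2 change of 1.99 (1.27 to 2.72). Most of these AGCAGCA reads were miR-16-5p and miR-15b-5p, from other chromosomes. Against miR-424-5p alone, its neighbour on the X chromosome, the ratio was 8.63 in control cells and 24.1 after knockdown. The log2 change was 1.48, and its interval, -0.10 to 2.99, holds 0.

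The makeup of this group of 5 strands differed accordingly. miR-503-5p made up 57.5% of their 120 reads in control cells (48.1% to 66.5%) and 84.4% of their 314 reads after knockdown (79.9% to 88.2%). miR-16-5p made up 22.5% (15.4% to 31.02%) and 9.55% (6.54% to 13.4%). miR-15b-5p made up 10.8% (5.90% to 17.8%) and 1.91% (0.704% to 4.11%). For these 3 miRNAs the intervals were apart, but shares of one sum depend on each other. Without miR-503-5p in the sum, miR-16-5p made up 52.9% (38.5% to 67.1%) of 51 reads in control cells and 61.2% (46.2% to 74.8%) of 49 reads after knockdown, the opposite direction. miR-15b-5p then made up 25.5% (14.3% to 39.6%) and 12.2% (4.63% to 24.8%), and both pairs of intervals overlapped. With miR-503-5p in the sum, the share of miR-424-5p was 6.67% in control cells and 3.50% after knockdown, and that of miR-15a-5p was 2.50% and 0.637%, both with overlapping intervals. Without it, miR-424-5p also turned, with 15.7% (7.02% to 28.6%) in control cells and 22.4% (11.8% to 36.6%) after knockdown. These intervals overlapped as well.

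**Figure D2:**
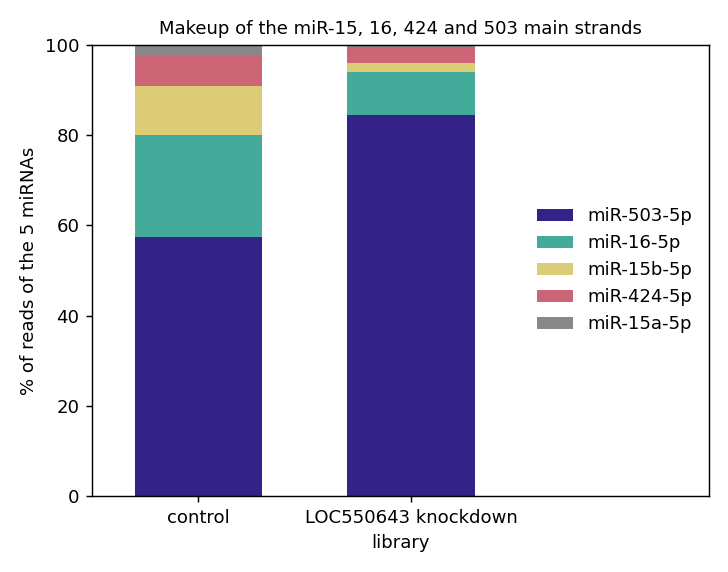
Makeup of the reads of miR-503-5p, miR-16-5p, miR-15b-5p, miR-424-5p and miR-15a-5p, in percent of their sum, in each library. miR-503-5p fills 57.5% of the control bar and 84.4% of the knockdown bar.

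The 3p strands of MIR424 and of both miR-16 hairpins had higher values after knockdown, where the shared or paired 5p strands had lower ones, while both arms of miR-15b were lower. The MIR424 hairpin, with both mature arms in capitals, is printed to show that its 2 products come from 1 precursor.
MIR424: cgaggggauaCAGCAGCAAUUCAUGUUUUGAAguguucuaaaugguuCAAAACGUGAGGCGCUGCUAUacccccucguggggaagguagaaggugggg

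miR-424-3p, the second arm, was at 68.8 RPM in control cells (13 reads, 36.6 to 118 RPM) and 126 RPM after knockdown (62 reads, 96.7 to 162 RPM). Its log2 ratio was 0.87 with an interval of -0.0028 to 1.86, which just holds 0. With the median of ratios the interval was 0.20 to 2.06 and lay above 0. It outnumbered miR-424-5p in both libraries. Of the reads from the hairpin, 61.9% came from the 3p arm in control cells (13 of 21 reads, 38.4% to 81.9%) and 84.9% after knockdown (62 of 73 reads, 74.6% to 92.2%). The log2 odds ratio between the libraries was 1.77, with an interval of -0.02 to 3.54.

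For miR-16 the 2 hairpins differ in their loops and 3p strands and share the 5p strand.
MIR16-1: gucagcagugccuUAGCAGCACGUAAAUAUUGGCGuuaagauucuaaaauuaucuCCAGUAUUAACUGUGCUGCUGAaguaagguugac
MIR16-2: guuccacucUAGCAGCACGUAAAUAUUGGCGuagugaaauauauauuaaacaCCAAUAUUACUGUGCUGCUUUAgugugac

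miR-16-1-3p had 4 reads in control cells (21.2 RPM) and 16 after knockdown (32.6 RPM), a log2 ratio of 0.60 (-1.01 to 2.66). miR-16-2-3p had 3 reads (15.9 RPM) and 10 reads (20.3 RPM), a log2 ratio of 0.34 (-1.60 to 2.86). Neither differed beyond its counting interval. Taken against miR-16-5p, the 2 strands together made up 20.6% of the miR-16 reads in control cells (7 of 34 reads, 8.70% to 37.9%) and 46.4% after knockdown (26 of 56 reads, 33.0% to 60.3%). These intervals overlapped, but the log2 odds ratio between the libraries, 1.72, had an interval of 0.21 to 3.39. Both arms of the miR-15b hairpin were low after knockdown. miR-15b-3p had 3 reads in control cells and 1 after knockdown, and the 3p arm held 18.8% of 16 reads and 14.3% of 7 reads.

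A higher 3p share was not a general feature of these libraries. The 30 hairpin names with more than 3 reads on each arm in both libraries include miR-16 and miR-424. Hairpins of the same name were pooled, so miR-16 is 1 name with the 3p strands of both its hairpins added. Of the 30, 16 had the higher 3p share after knockdown, and the median log2 odds ratio was 0.07. The interval lay above 0 in 5 of the 30 (16.7%), of which miR-16 is 1, and below 0 in 3. Reads of the 3p arms of the miR-16 hairpins were few in both libraries, so this contrast rests on 7 reads in control cells.

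**Figure D3:**
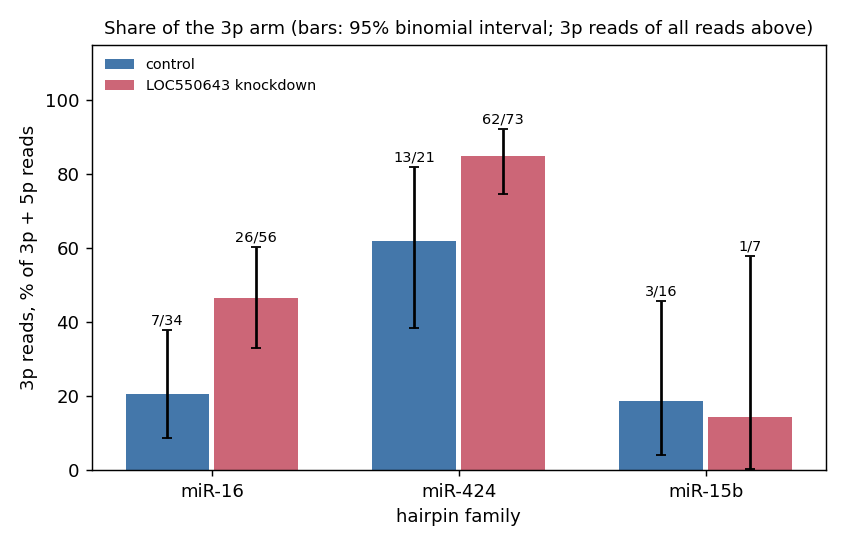
Reads of the 3p arm in percent of the reads of both arms for miR-16, miR-424 and miR-15b in each library, with 95% exact binomial intervals and the 3p reads of all reads above each bar. The share is higher after knockdown for miR-16 (20.6% and 46.4%) and miR-424 (61.9% and 84.9%), and rests on 16 and 7 reads for miR-15b.

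By genomic cluster the directions differed as well. The products that belong to MIR15B and MIR16-2 alone (miR-15b-5p, miR-15b-3p and miR-16-2-3p) summed to 100.5 RPM in control cells and 34.6 RPM after knockdown, a log2 ratio of -1.51 (-2.57 to -0.52). Those of MIR15A and MIR16-1 alone (miR-15a-5p and miR-16-1-3p) summed to 37.0 and 36.6 RPM, a log2 ratio of -0.02 with the wide interval of -1.34 to 1.49, from 7 and 18 reads. All products of the miR-15a, miR-15b and miR-16 hairpins together, including the shared miR-16-5p, were at 280 RPM in control cells (53 reads) and 132 RPM after knockdown (65 reads), a log2 ratio of -1.08 (-1.63 to -0.53). Of the MIR195 and MIR497 hairpins, only miR-195-3p was listed, with 1 and 3 reads. The main strands miR-195-5p and miR-497-5p were listed in neither library, which allows levels of up to 15.9 RPM in control cells and 6.10 RPM after knockdown, as 0 reads allow up to 3. The same limits hold for the other 6 mature names of the rule that RefSeq holds and neither library lists, miR-15a-3p, miR-503-3p, miR-497-3p and the 3 of miR-103 above.

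The MIR424 and MIR503 cluster had a higher sum after knockdown. Its 3 listed products summed to 476 RPM in control cells (383 to 585 RPM) and 688 RPM after knockdown (616 to 765 RPM), a log2 ratio of 0.53 (0.19 to 0.88). On the X chromosome 3 further hairpin families follow on the same strand, 4890 bases after MIR503: MIR542, MIR450A and MIR450B, which are no members of the superfamily. Their products had the opposite sign. miR-542-3p was at 243 RPM in control cells and 165 RPM after knockdown, a log2 ratio of -0.56 (-1.10 to -0.0076), and with the median of ratios -0.36 (-0.90 to 0.19), which holds 0. miR-450b-5p was at 217 and 110 RPM, a log2 ratio of -0.97 (-1.59 to -0.36). miR-450a-5p was at 58.2 and 34.6 RPM, a log2 ratio of -0.73 whose interval, -1.93 to 0.49, holds 0.

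Set against the sum of these 3 neighbours, which does not depend on the scaling, miR-503-5p had 0.704 reads for each of their reads in control cells and 1.74 after knockdown, a log2 change of 1.31 (0.76 to 1.86). For miR-424-3p the same figures were 0.133 and 0.408, a log2 change of 1.62 (0.65 to 2.68). miR-424-5p did not differ from the neighbours beyond counting error, at 0.0816 and 0.0724 reads for each of theirs (log2 change -0.17, interval -1.68 to 1.40). The ratio of miR-503-5p to miR-424-3p was 5.31 in control cells and 4.27 after knockdown, and its interval, -1.38 to 0.67 on the log2 scale, holds 0.

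**Figure D4:**
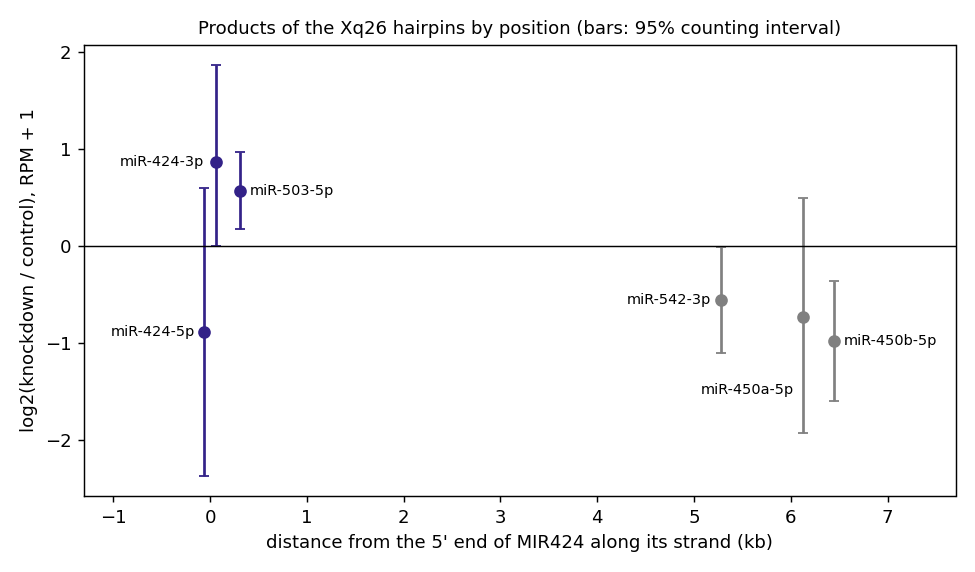
Log2 ratio of knockdown over control (RPM + 1) for the listed products of the X chromosome hairpins, with 95% counting intervals, against the distance of each hairpin from the 5′ end of MIR424 in kb. miR-424-3p and miR-503-5p lie above 0, and miR-424-5p and the 3 neighbours, shown in grey 5 to 7 kb away, lie below 0.

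Counted over the superfamily, 7 of the 12 members were lower and 5 higher after knockdown, with a median log2 ratio of -0.64 beside -0.20 over all 425 miRNAs, the 3 members with at most 3 reads in both libraries included. Over the 8 with more than 3 reads in both, the median was -0.64 beside -0.19 over 201 miRNAs. More than 2-fold lower were 4 of the 12 (miR-15a-5p, miR-15b-5p, miR-15b-3p and miR-16-5p), against 27.3% of all listed miRNAs, 2 of these 4 with no more than 3 reads in both libraries. More than 2-fold higher were 0 of 12, against 17.9% of all listed miRNAs. The shares of 27.3% and 17.9% include miRNAs listed in only 1 library. There a single read against 0 can pass 2-fold. All 12 members were listed in both libraries, but only 326 of the 425 miRNAs were, so these 2 shares are not from a like set. Of the 8 members with more than 3 reads in both libraries, the counting interval lay below 0 for 3 (miR-103a-3p, miR-16-5p and miR-15b-5p), against 24.9% of the 201 miRNAs with as many reads, and above 0 for 1 (miR-503-5p), against 10.9%. With the median of ratios these shares were 17.4% and 22.9% over the 201 miRNAs, and 3 members lay below 0 and 2 (miR-503-5p and miR-424-3p) above 0. These counts rest on so few members that no difference from the libraries at large, or likeness to them, is read from them. Scaling by the median of ratios left the sign of the 9 members with more than 3 reads in a library as it was. Its shift was smaller than the distance of any of these ratios from 0, so no sign could turn. Relative to that shift the log2 ratios were -0.63 for miR-103a-3p, -1.02 for miR-16-5p, -2.22 for miR-15b-5p, 0.76 for miR-503-5p and 1.06 for miR-424-3p.

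**Figure D5:**
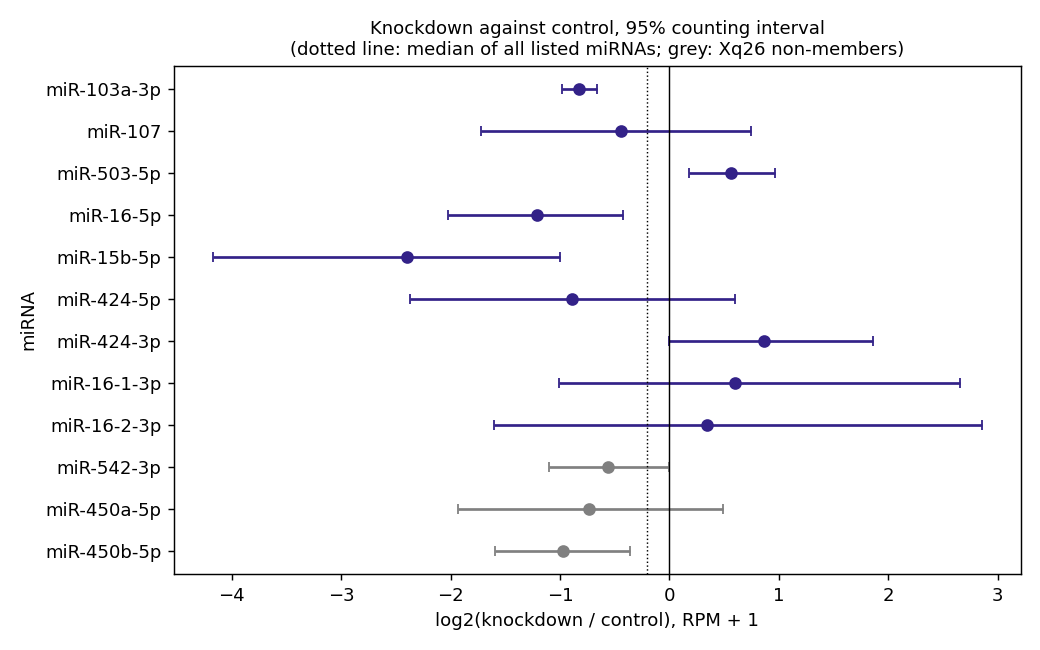
Log2 ratio of knockdown over control (RPM + 1) with 95% counting intervals for the 9 members with more than 3 reads in a library and, in grey, the 3 X chromosome neighbours. The dotted line is the median of all listed miRNAs, -0.20. The intervals of miR-103a-3p, miR-16-5p and miR-15b-5p lie below 0 and that of miR-503-5p lies above 0.

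The study examined LOC550643 for miRNA binding, so the members were also searched for pairing to it. The reverse complement of seed bases 2 to 7 of each of the 12 members (GCTGCT for the miR-15, miR-16, miR-424 and miR-503 5p strands, TGCTGC for miR-103a-3p and miR-107, ATACTG for miR-16-1-3p, ATATTG for miR-16-2-3p and miR-195-3p, TGATTC for miR-15b-3p and CGTTTT for miR-424-3p) was looked for in the sense strand of the 3 LOC550643 isoforms. These letters occur in none of V1, V2 and V3. As several members share a word and the isoforms share most of their sequence, these are not separate searches. Of the 350 listed miRNAs with a RefSeq sequence, 16.6% had such a 6-base match in V1, 14.6% in V2 and 11.1% in V3. Matches outside the seed were not searched for.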

How the data were processed

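Small RNA libraries of MDA-MB-231-IV2-1 cells (N.C and siLOC550643 pool) were prepared and sequenced by the authors. Their methods name a NEBNext small RNA kit and a MiSeq, the labels also a HiSeq. The authors assigned the reads with their own tool and deposited RPM values per mature miRNA, 1 table per library. The submitters' processing notes name FastQC, cutadapt and hg38. The miRNA release and the rule for reads that match several miRNAs are not given in the sources used here. The totals are 999996 and 999845 RPM, so a value is a share of the miRNA reads.

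The libraries were rescaled to the same total, unlisted miRNAs were set to 0, and log2 ratios were taken with a pseudocount of 1 RPM. The RPM worth 1 read was fitted to values up to 20 reads, of which 92.9% and 91.5% lay within 0.1 of a whole read. As some were fractions, no count test was run. For members with at most 3 reads in both libraries no single ratio is printed, but they enter the counts and the median over 12 members. Intervals are Clopper-Pearson intervals of rounded reads, those of odds ratios are exact conditional intervals (scipy 1.17.1, numpy 2.4.6, Python 3.11.15). PCR reads without molecular identifiers are not independent molecules, so the intervals cover counting error only. The step and the intervals were tested on simulated libraries of whole reads drawn independently. Fractions of reads and PCR copies were not simulated. Sequences and positions are from RefSeq (GRCh38.p14, 350 of 425 listed miRNAs matched by name), host genes from GENCODE 29, and isoform sequences from the supplement. All members are named, with the X chromosome neighbours. Members and lists were chosen with earlier results of these data known, and the ratios between miRNAs within a library, other than the arms, after their values were seen. Scaling, pseudocount, fold threshold and filters on low values were varied, and the intervals under the other scalings were added after seeing the data.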

Additional observations from a re-analysis of the deposited data

How the results depend on the processing

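No paired analysis was possible because there is a single library of each kind. With the median of ratios and the 75th percentile in place of the library total, which raise all log2 ratios alike by 0.20 and 0.19, the log2 ratio of the superfamily total was -0.37 and -0.38, that of miR-103a-3p and miR-107 summed, the GCAGCAU seed group, -0.62 and -0.63, and 1 member (miR-424-3p) was more than 2-fold higher instead of 0. These 2 scalings also carried the counting intervals of miR-424-3p and of the total without miR-103a-3p (0.29 and 0.28) above 0. The same held for the 5 listed 3p strands of miR-15b, miR-16, miR-195 and miR-424 summed (0.75 and 0.74). In that sum miR-424-3p, the larger arm of its hairpin, gave 62 of 92 reads after knockdown. The interval of miR-542-3p (-0.36 and -0.37) came to hold 0. Leaving out miR-103a-3p gave 0.087 for the total, and miR-107 apart gave -0.45. At 1.5-fold 2 members were higher, and among members with a mean of at least 100 RPM 1 was more than 2-fold lower instead of 4. Without miR-503-5p, the share of miR-16-5p among the remaining strands was 52.9% in control cells and 61.2% after knockdown, a direction opposite to that with miR-503-5p. Of 72 values of single members and neighbours under 6 alternatives, 70 stayed within their counting interval and 0 changed sign. The other 2 were those of miR-103a-3p under these scalings. This is a weak check, as most of the intervals are far wider than the shifts and no ratio lay within such a shift of 0. Depth limits most members: in control cells 4 of 12 stood on 3 reads or fewer, and with the library total the intervals of 4 of the other 8 held 0.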
